A study of Mus musculus with 6 samples.

Results

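The 38 genes described here mark the cells of blood and lymph vessels: 21 endothelial genes, 4 lymphatic endothelial genes and 13 genes of mural cells, the pericytes and smooth muscle cells that wrap the endothelium. They were taken by symbol from a fixed list, and all 38 were among the 22180 genes measured. The mural genes were split into 6 pericyte genes and 7 smooth muscle contractile genes.

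The arrays compared adipose tissue of mouse offspring aged 32 weeks. In the chromium restriction group (3 arrays) the sample titles give a maternal chromium restriction diet. In the control group (3 arrays) they give a control diet and do not name the dams. The labels give no strain, sex, fat depot or number of dams. They do not state whether the 3 samples of a group are separate animals or share a litter, and the p-values speak only of the spread between them. Whole tissue RNA was used, so fewer cells of a type and less RNA per cell cannot be told apart.

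Adipose tissue is threaded by a dense capillary bed that delivers fatty acids and carries adipokines away. Endothelial cells line these vessels; vascular endothelial growth factor receptors drive their survival and sprouting, and angiopoietin signalling through Tek keeps them quiescent. Pericytes stabilise capillaries, and smooth muscle cells around larger vessels contract through actin, myosin and calponin. Serum response factor switches on many contractile genes through a sequence called the CArG box.

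The values are those the authors deposited, 1 per probe set and array, and they were read as log2 levels, so a difference of 1 unit is 2-fold. Array medians ran from 5.44 to 5.57. Fabp4, a fatty acid carrier abundant in adipocytes, was at 13.53 to 13.70 on the chromium restriction arrays and at 13.60 to 13.72 on the controls. Of the 38 members, 35 lay above the array median on all 6 arrays, and Prox1, Mmrn1 and Cnn1 lay below it on 1 to 3 arrays. Genes of other tissues differed between arrays within a group. Averaged over 7 hepatocyte genes, the level was 11.33, 6.55 and 10.90 on chromium restriction arrays 1, 2 and 3, against 6.56, 6.70 and 6.94 in controls 1, 2 and 3. Sis, an intestinal enzyme, was at 7.09 in chromium restriction replicate 2 and at 4.53 to 4.62 elsewhere. Ucp1, the uncoupling protein of brown fat, was at 4.87, 4.92 and 4.95 in the chromium restriction arrays, against 10.25, 4.89 and 7.37 in controls 1, 2 and 3.

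Promoters are shown for the contractile genes because these varied most between arrays and several of them are textbook targets of serum response factor. Each runs from 250 bases before to 50 bases after the start and comes from RefSeq (GRCm38.p6), 5′ to 3′ on the strand of the gene. Capitals mark CArG box matches that keep the outer CC and GG and allow 1 of the 6 inner bases to be other than A or T. Acta2, smooth muscle actin, lies at chr19:34255324-34255623 (minus strand), and Cnn1, calponin, at chr9:22099003-22099302 (plus strand).
Acta2: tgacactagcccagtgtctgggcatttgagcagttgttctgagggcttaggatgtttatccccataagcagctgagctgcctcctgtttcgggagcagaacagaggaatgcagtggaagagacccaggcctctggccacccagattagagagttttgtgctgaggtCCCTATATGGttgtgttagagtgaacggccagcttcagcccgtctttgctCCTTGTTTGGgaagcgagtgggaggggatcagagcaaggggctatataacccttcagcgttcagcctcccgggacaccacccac
Cnn1: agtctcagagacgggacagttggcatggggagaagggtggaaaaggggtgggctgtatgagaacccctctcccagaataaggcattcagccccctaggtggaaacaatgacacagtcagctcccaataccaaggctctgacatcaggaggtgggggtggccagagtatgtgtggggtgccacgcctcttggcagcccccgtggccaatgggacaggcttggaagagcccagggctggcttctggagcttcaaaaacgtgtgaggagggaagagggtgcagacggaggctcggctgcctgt
An exact CArG box was found in none of the 5 contractile promoters in the RefSeq table (Acta2, Cnn1, Des, Lmod1 and Mylk), nor in any of the 30 promoters of 25 members in that table. Both strands were read, and 1.63% of all 32851 promoters held an exact box. With 1 inner mismatch allowed, only that of Acta2 matched among the 5, at bases -84 to -75 and -34 to -25 from the start, while 5 of the 30 member promoters and 9.98% of all promoters did. The looser search was chosen after the exact one had been seen, and a missing match says only that these letters are not in this window.

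No member passed the test between groups. With limma and Benjamini-Hochberg adjustment over all 22180 genes, 0 of 38 members reached an adjusted p of 0.05, against 0.194% of all genes. That share depends on 52 genes in rows where some values are written with further digits than the rest. With these left out, 0 of all genes were called, and 0 members lay in such rows. The 0 of 38 therefore does not set the members apart from other genes. At an unadjusted p under 0.05 there were 2 members, Prox1 and Cspg4, or 5.26% of the 38, against 5.95% of all genes. The groups did not overlap for 1 member, Cspg4, or 2.63%, against 9.6% of all genes (3.53% with all chromium restriction values higher and 6.06% with all lower). The median log2 difference over the 38 members, chromium restriction minus control, was 0.08, and over all genes it was -0.02. On average 25 members were higher with chromium restriction and 13 were lower, against 9576 and 12604 of all genes. The count of higher members was 17 without control 2 and 32 without control 1.

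**Figure D1:**
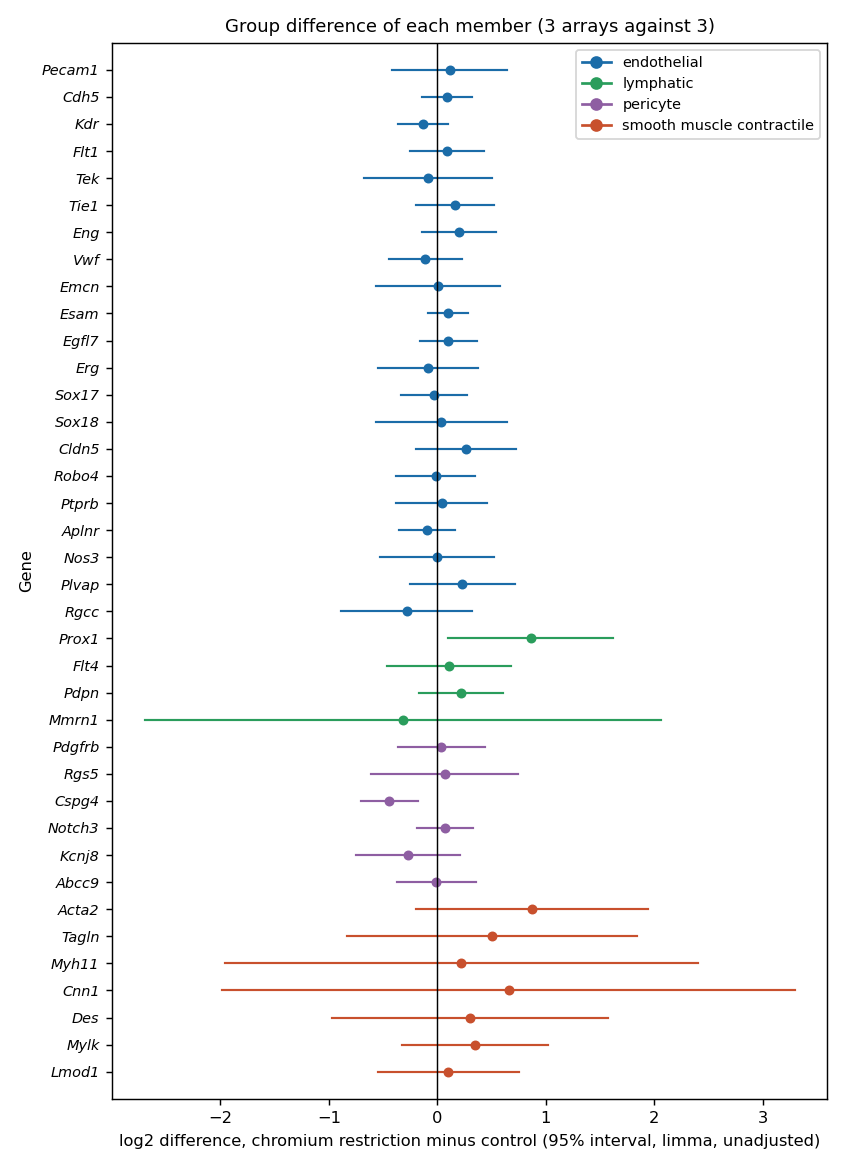
Log2 difference, chromium restriction minus control, for each of the 38 members (points) with unadjusted 95% intervals from limma (lines), coloured by list. The 21 endothelial intervals all lie inside 1 log2 unit either way, while those of Cnn1, Myh11 and Mmrn1 span over 4 units.

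The endothelial genes were nearly level between the groups. Their median log2 difference was 0.04, with 12 higher and 9 lower, and single differences ran from -0.28 to 0.27. The unadjusted 95% interval of each of the 21 lay within 1 log2 unit either way, as did 95.2% of those of all genes. The smallest adjusted p among them was 0.93.

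Pecam1, an adhesion molecule of endothelial junctions, was at 9.28, 9.498 and 9.24 on chromium restriction arrays 1, 2 and 3, against 9.73, 9.004 and 8.95 in controls 1, 2 and 3. The chromium restriction values lay inside the range of the controls, and the log2 difference was 0.11 ± 0.22 (SE, n = 3 per group). Cdh5, the cadherin that joins endothelial cells, was at 10.54, 10.31 and 10.56, against 10.45, 10.33 and 10.34 in the controls, a difference of 0.09 ± 0.10 (SE). These groups overlapped as well, and Cdh5 spanned only 0.25 log2 units over the 6 arrays. Cldn5, a tight junction claudin, had the highest endothelial difference, 0.27 ± 0.19 (SE), at 8.51, 8.05 and 8.75 in the chromium restriction arrays, against 8.30, 8.01 and 8.21 in the controls. Replicates 1 and 3 of the chromium restriction group, the arrays rich in hepatocyte genes, held the highest Cldn5 and Cdh5 values. Replicate 1 was the lowest of the 6 arrays for 4 of the 21 endothelial genes and for 25.1% of all genes. The part of liver tissue in these values was not tested. The other junction and surface genes, Esam and the sialomucin gene Emcn, differed by 0.10 and 0.01.

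Kdr, the main receptor for vascular endothelial growth factor, was at 9.21, 9.25 and 9.25 in the chromium restriction arrays, against 9.54, 9.23 and 9.34 in the controls. Its difference was -0.13 ± 0.10 (SE), and control 1 was the array that stood above the rest. Flt1, the second receptor for this factor, differed by 0.09, and the angiopoietin receptor gene Tek and its relative Tie1 differed by -0.08 and 0.16. Eng, a co-receptor for transforming growth factor beta, differed by 0.20, the guidance receptor gene Robo4 by -0.02, the apelin receptor gene Aplnr by -0.10 and the endothelial phosphatase gene Ptprb by 0.04. The transcription factor genes Erg, Sox17 and Sox18, which maintain endothelial identity, differed by -0.09, -0.03 and 0.04.

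Among genes for endothelial products, Plvap, which forms the diaphragms of fenestrae and caveolae, was at 7.30, 7.72 and 7.70 in the chromium restriction arrays, against 7.49, 6.96 and 7.58 in the controls (difference 0.23 ± 0.20, SE). Control 2 was the lowest of the 6 arrays. Rgcc, a regulator of the cell cycle, had the lowest endothelial difference, -0.28 ± 0.25 (SE), at 9.66, 9.42 and 9.90, against 9.71, 9.63 and 10.47 in the controls. Control 3 alone stood above all other arrays for Rgcc. Vwf, which encodes von Willebrand factor, differed by -0.11, the secreted factor gene Egfl7 by 0.10 and Nos3, endothelial nitric oxide synthase, by -0.0045.

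The lymphatic genes did not share a pattern between the groups. Among the controls, 3 of the 4 (all but Pdpn) were highest in control 1 and lowest in control 3. Of all genes 31.2% were highest in control 1 and 33.6% lowest in control 3. Prox1, the transcription factor that specifies lymphatic endothelium, was at 6.45, 5.64 and 6.002 on chromium restriction arrays 1, 2 and 3, against 5.78, 4.88 and 4.85 in controls 1, 2 and 3. Chromium restriction replicates 1 and 3 lay above all controls and replicate 2 below control 1, so the groups overlapped. The log2 difference was 0.86 ± 0.31 (SE, n = 3 per group), with an unadjusted p of 0.0321 and a limma adjusted p of 0.817. Because 2 controls lay below their array medians, no fold is given. Prox1 is also a transcription factor of hepatocytes, and its highest values were on the arrays rich in hepatocyte genes. With the hepatocyte gene mean as a covariate its difference was 0.51 (unadjusted p = 0.244 in limma), and without those 2 arrays, 1 array against 3, it was 0.47. Both arrays belong to the chromium restriction group, so hepatocyte content and diet cannot be told apart by these fits. Replicate 2, which was not rich in hepatocyte genes, lay below control 1 and above controls 2 and 3. The part of liver in the Prox1 values was not tested.

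Mmrn1, which encodes multimerin of lymphatic endothelium and platelets, was at 5.05, 7.90 and 5.15 in the chromium restriction arrays, against 7.72, 6.38 and 4.96 in the controls. Each group thus held high and low arrays, and the range of 2.94 log2 units over 6 arrays was far wider than the group difference of -0.32 ± 0.98 (SE). The mean of 5 platelet genes was 6.03, 6.23 and 5.97, against 5.81, 6.01 and 6.08 in the controls. Flt4, the receptor for lymphatic growth factors, was at 6.58, 7.04 and 6.54, against 7.07, 6.49 and 6.27 in the controls (difference 0.11 ± 0.24, SE). Its highest value in each group fell on the same arrays as the highest Mmrn1, chromium restriction replicate 2 and control 1. Pdpn, podoplanin, which mesothelium and fibroblasts express too, was at 7.94, 7.68 and 7.67, against 7.22, 7.74 and 7.67 in the controls (difference 0.22 ± 0.16, SE). Its lowest value was in control 1, where the mean of 8 mesothelial genes was also lowest (6.35, and 7.32 to 7.84 on the other 5 arrays); the part of mesothelium in the Pdpn values was not tested.

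Pericyte genes differed little between the groups, Cspg4 the most. The median log2 difference of the 6 genes was 0.01. Pdgfrb, the receptor through which endothelium recruits pericytes, was at 8.20, 8.14 and 8.23 in the chromium restriction arrays, against 8.42, 7.78 and 8.25 in the controls, a difference of 0.04 ± 0.17 (SE, n = 3 per group). The controls bracketed all chromium restriction values. Rgs5, a regulator of G protein signalling, differed by 0.07 and the receptor gene Notch3 by 0.07. Rgs5 was the only member with more than 1 probe set of its own, and the dimmer of its 2 differed by 0.28.

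Cspg4, the NG2 proteoglycan of pericytes, was at 6.43, 6.67 and 6.41 in the chromium restriction arrays, against 6.92, 6.83 and 7.09 in the controls. All 3 chromium restriction values lay below all controls. In the chromium restriction group it was 1.36-fold lower, with a log2 difference of -0.44 ± 0.11 (SE), an unadjusted p of 0.00618 and an adjusted p of 0.636 in limma. The 2 arrays rich in hepatocyte genes were the lowest. Without them, 1 array against 3, the difference was -0.27. The part of liver tissue in the Cspg4 values was not tested. Kcnj8 and Abcc9 encode the channel and regulatory subunits of the potassium channel of pericytes. Kcnj8 was at 7.56, 7.37 and 7.13, against 7.69, 7.24 and 7.93 in the controls (difference -0.27 ± 0.20, SE), and Abcc9 differed by -0.01.

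**Figure D2:**
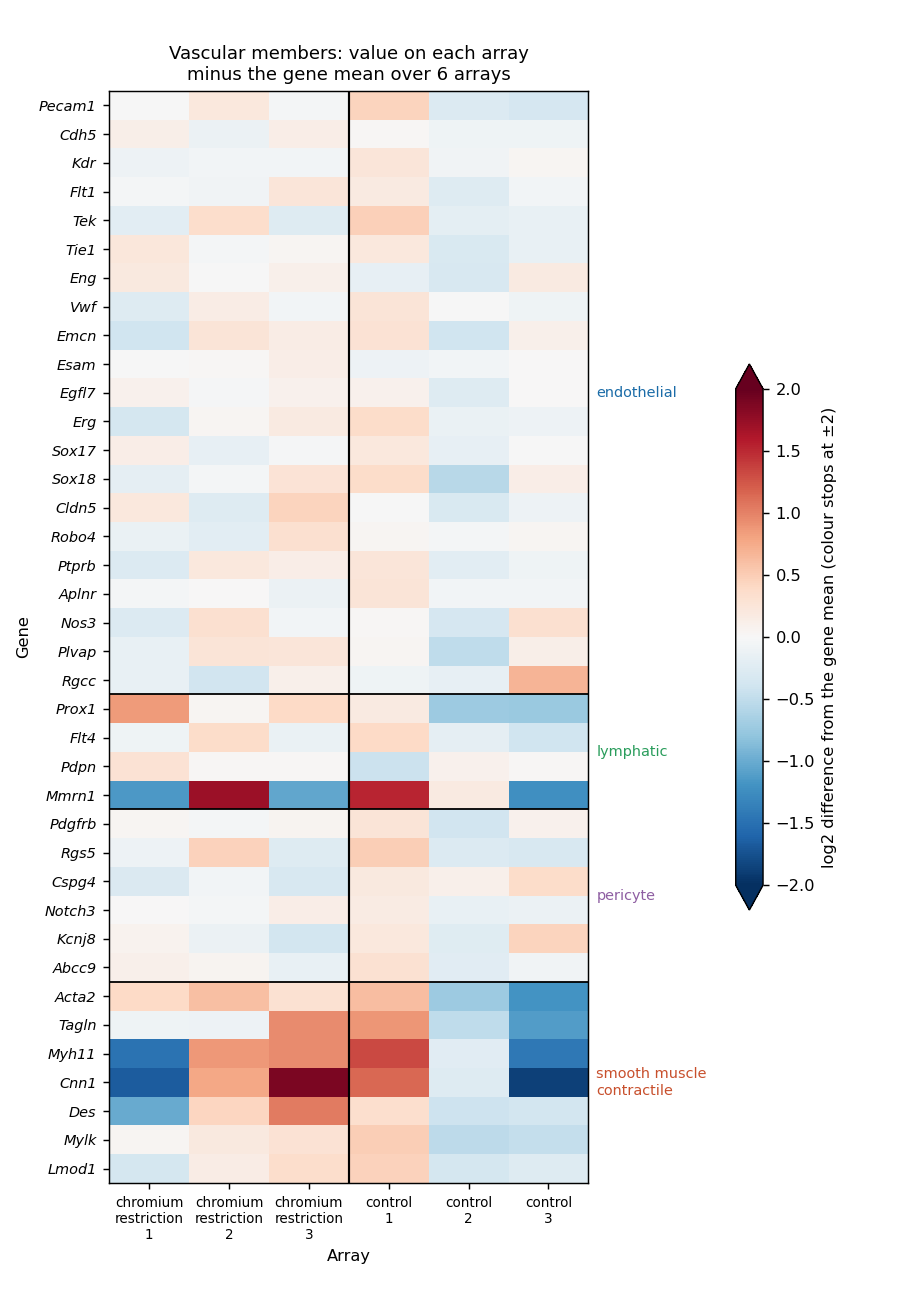
Value of each of the 38 members (rows) on each array (columns) minus the gene's mean over the 6 arrays, on the log2 scale, with red higher and blue lower. The contractile genes and Mmrn1 carry the strong colours, and Cnn1 was at 9.13 in chromium restriction replicate 3 and at 5.37 in control 3.

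Of the member lists, the smooth muscle contractile genes varied most, and within both groups. Over the 6 arrays their median range was 2.04 log2 units, against 1.198 for the lymphatic genes, 0.66 for the pericyte genes, 0.53 for the endothelial genes and 0.40 for all genes. A range of more than 1 log2 unit was seen in 6 of 7 contractile genes, 2 of 4 lymphatic genes (Prox1 and Mmrn1), 1 of 21 endothelial genes, 0 of 6 pericyte genes and 6.47% of all genes. All 7 were higher on average in the chromium restriction group, with a median log2 difference of 0.35, yet 0 reached an unadjusted p of 0.05 in limma and the groups overlapped for each. The unadjusted 95% interval stayed within 1 log2 unit either way for Lmod1 alone and reached past 2-fold for the other 6.

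Acta2 was at 11.52, 11.72 and 11.42 on chromium restriction arrays 1, 2 and 3, against 11.73, 10.38 and 9.93 in controls 1, 2 and 3. The chromium restriction arrays lay close together and above controls 2 and 3, while control 1 was the highest of all. Its log2 difference, the highest of the 38 members, was 0.87 ± 0.44 (SE, n = 3 per group), or 1.83-fold, with an unadjusted p of 0.0941 and an adjusted p of 0.844 in limma. Without control 1 the difference was 1.40, with an unadjusted p of 0.00038 and an adjusted p of 0.193 in limma. Leaving out the highest control was bound to raise the difference and narrow the controls, so this p-value is no support for a difference. Over the 16 alternatives the Acta2 difference ran from 0.50 to 1.40. Mylk, the kinase that activates smooth muscle myosin, was at 7.19, 7.34 and 7.44, against 7.64, 6.62 and 6.67 in the controls. As for Acta2, control 1 was the highest array and controls 2 and 3 lay below all chromium restriction arrays.

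Cnn1 was at 5.57, 8.004 and 9.13 in the chromium restriction arrays, against 8.38, 6.97 and 5.37 in the controls. Both groups thus ran from near the array median to far above it, and the difference was 0.66 ± 1.09 (SE). Myh11, smooth muscle myosin heavy chain, was at 7.80, 10.14 and 10.23, against 10.61, 9.06 and 7.85 in the controls, a difference of 0.22 ± 0.90 (SE). It was low on the same arrays as Cnn1, chromium restriction replicate 1 and control 3. Tagln, transgelin, was at 8.25, 8.23 and 9.28, against 9.21, 7.82 and 7.21 in the controls (difference 0.50 ± 0.55, SE). Des, the intermediate filament desmin, was at 6.73, 8.16 and 8.77, against 8.07, 7.31 and 7.36 in the controls (difference 0.31 ± 0.53, SE), and Lmod1, the actin nucleator leiomodin, differed by 0.10 ± 0.27 (SE).

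Among the contractile genes, chromium restriction replicate 1 was the lowest of its group for 5 of 7 and replicate 3 the highest for 6 of 7. These are the arrays with hepatocyte gene means of 11.33 and 10.90. Control 1 was above controls 2 and 3 for 7 of 7. Actg2, the actin of visceral smooth muscle and no member, was at 5.41, 6.17 and 7.90 in the chromium restriction arrays, against 7.004, 6.40 and 5.21 in the controls, so it was lowest where Cnn1 was lowest and highest in the array where Cnn1 was highest. Over 10 visceral smooth muscle genes the mean was 5.66, 5.66 and 5.93, against 5.95, 5.72 and 5.48 in the controls. The mean of 10 skeletal muscle genes, a tissue that also makes desmin, was 5.77, 5.503 and 5.59, against 5.61, 5.63 and 5.57 in the controls. The part of liver tissue, visceral muscle or large vessels in the contractile values was not tested.

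**Figure D3:**
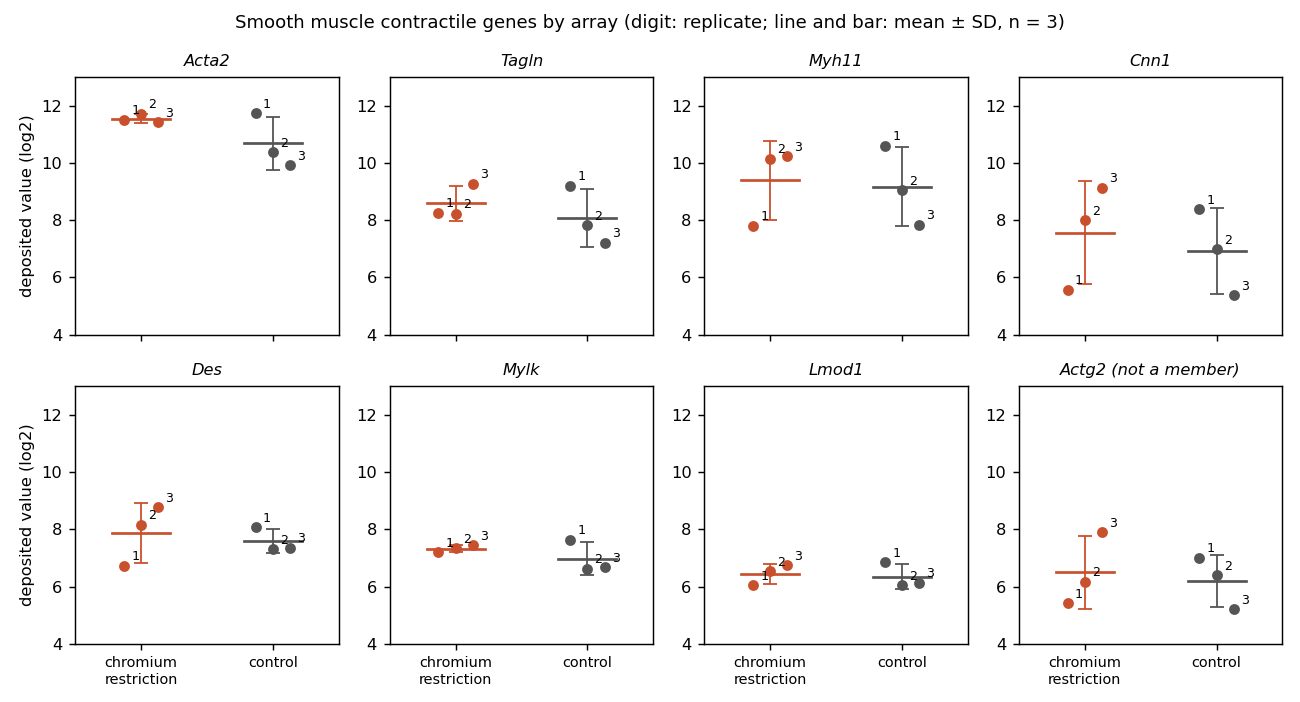
Deposited log2 values of the 7 contractile genes and Actg2 by group, with each array marked by its replicate number, and the mean ± SD (n = 3). Control 1 is the highest control for each of the 7, and chromium restriction replicate 1 is far below replicates 2 and 3 for Myh11, Cnn1 and Des.

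Control 1 was the highest control for most members. Of the 38 members, 30 (78.9%) were higher in control 1 than in controls 2 and 3, against 31.2% of all genes, and 19 had their highest of 6 values there. Control 2 was the lowest control for 25 members (65.8%), against 32.2% of all genes. In 5 further lists of vascular genes, which share some genes, control 1 was the highest control for 10 of 23 ligands. The same held for 13 of 34 receptor and junction genes and 16 of 24 transcription factor genes. It also held for 21 of 29 further mural genes and 4 of 7 further lymphatic genes. The median deviation of the endothelial genes from their means over 6 arrays was -0.09, -0.01 and 0.11 on chromium restriction arrays 1, 2 and 3, against 0.20, -0.22 and -0.0037 in controls 1, 2 and 3. For the pericyte genes it was 0.02, -0.03 and -0.20, against 0.23, -0.23 and 0.01. For the contractile genes it was -0.35, 0.43 and 0.94, against 0.61, -0.42 and -1.12. The mean of 5 brown fat genes was 5.57, 5.39 and 5.69 in the chromium restriction arrays, against 8.59, 5.58 and 6.60 in controls 1, 2 and 3. Control 1 thus had the highest mean of these genes too, and it was the highest array for 4 of the 5. Brown fat is more densely vascularised than white fat, and its part in the vessel gene values was not tested.

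Since control 1 held the highest control value for most members, leaving it out lowered their control means. In limma 0 members then passed an adjusted p of 0.05, and 7 had an unadjusted p under 0.05 (18.4%, against 5.30% of all genes): Pecam1, Tie1, Prox1, Acta2, Tagln and Mylk, higher in the chromium restriction group, and Cspg4, lower. The lowest adjusted p was 0.193, for Acta2. When any other single array was left out, 1 to 3 members had an unadjusted p under 0.05. The median log2 difference of the contractile genes was 0.89 without chromium restriction replicate 1 and -0.05 without replicate 3, with 4 of 7 genes then lower in the chromium restriction group. It was 0.94 without control 1, 0.17 without control 2 and 0.07 without control 3, with 3 of 7 genes then lower. Without chromium restriction replicates 1 and 3 together it was 0.58.

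**Figure D4:**
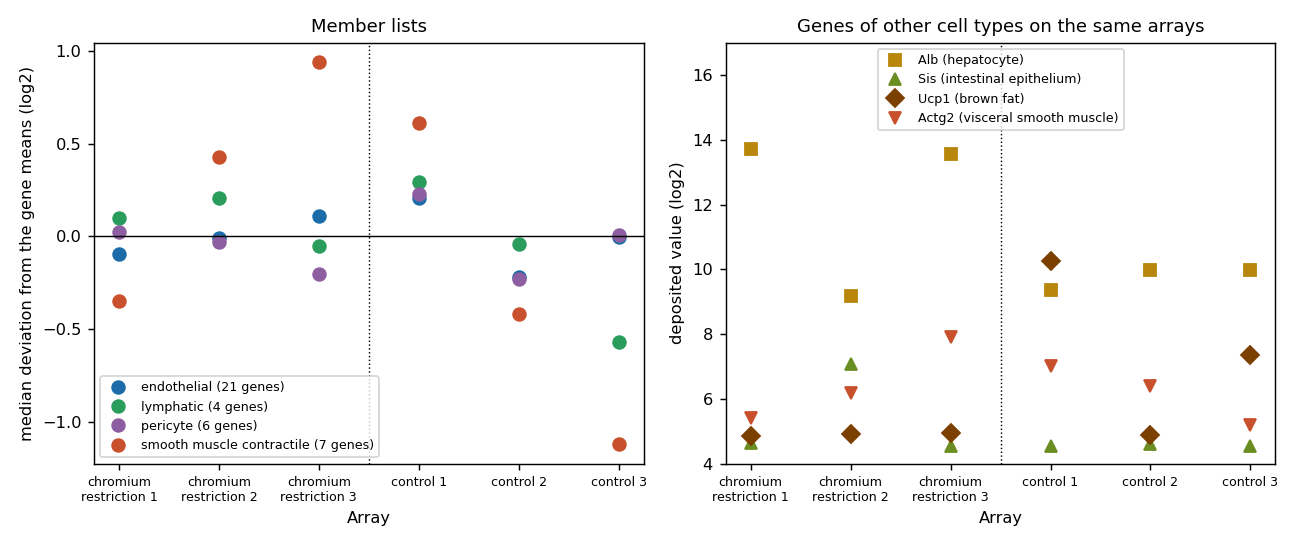
Left, the median deviation of each member list from its gene means on each array (log2). Right, deposited log2 values of Alb, Sis, Ucp1 and Actg2, genes of other cell types, on the same arrays. The contractile genes lie at 0.94 in chromium restriction replicate 3 and at -1.12 in control 3, and the endothelial genes stay between -0.22 and 0.20.

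Other vascular genes were examined in 5 lists holding 112 measured genes: ligands, receptors and junction proteins, transcription factors, further mural genes and further lymphatic genes. Some genes, such as Angpt1, stood in more than 1 list, so the counts per list are not of separate genes. None of the 112 passed an adjusted p of 0.05 in limma, while 14 (12.5%), 11 higher and 3 lower, had an unadjusted p under 0.05, against 5.95% of all genes. Their median log2 difference was 0.04. Among ligands, 15 of 23 were higher, against 9576 of all 22180 genes. Angpt1, the angiopoietin that activates Tek, was at 5.25, 6.15 and 5.96 in the chromium restriction arrays, against 7.54, 6.46 and 6.79 in the controls. All chromium restriction values were below all controls, with a log2 difference of -1.15 ± 0.34 (SE) and an adjusted p of 0.750 in limma. Vegfb differed by -0.50 ± 0.15 (SE) and the Notch ligand gene Dll1 by 0.26 ± 0.10 (SE), and Vegfa, the main ligand of Kdr, by 0.06 ± 0.23 (SE).

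Among 34 receptor and junction genes, 14 were higher. Cxcr4, a chemokine receptor of endothelium and of many leukocytes, was at 7.31, 7.65 and 7.005 in the chromium restriction arrays, against 6.36, 6.56 and 6.25 in the controls. The groups did not overlap, and the difference was 0.93 ± 0.18 (SE), or 1.90-fold, with an adjusted p of 0.414 in limma. The netrin receptor gene Unc5b differed by 0.40 ± 0.09 and the adhesion gene Icam2 by 0.36 ± 0.12 (SE), again without overlap. Of 24 transcription factor genes 17 were higher, led by Hhex, a homeobox factor of endothelium and also of liver, at 6.91, 6.71 and 6.78, against 6.41, 6.08 and 6.37 in the controls (difference 0.52 ± 0.11, SE). Bcl6b differed by 0.44 and Tal1 by -0.27.

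Of 29 further mural and contractile genes 19 were higher. Mustn1, a small nuclear protein of muscle and cartilage, was at 10.72, 10.67 and 10.66 in the chromium restriction arrays, against 10.10, 9.81 and 9.82 in the controls (difference 0.77 ± 0.10, SE, limma adjusted p = 0.0821). Mustn1 is the 1 gene of the 112 that lies in a row of the table in which some values are written with further digits than the rest, and such rows hold 64 of the 33793 probe sets. How they were made is not stated, and 0 of the 38 members lay in one. Actn1, an actin crosslinker, differed by 0.41 ± 0.10 (SE), with no overlap between the groups. Myl9, a light chain of smooth muscle myosin, was at 8.03, 9.56 and 9.80, against 9.73, 8.70 and 8.24 in the controls, and like Myh11 it was lowest in chromium restriction replicate 1 and control 3. Among 7 further lymphatic genes Lyve1, a hyaluronan receptor shared with macrophages and liver sinusoids, was at 8.53, 9.02 and 7.15, against 8.52, 9.32 and 8.95 in the controls (difference -0.70 ± 0.49, SE), Gja1 differed by -0.29 and Nr2f2 by -0.28.

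Genes of liver sinusoidal endothelium were read beside the endothelial members. Of 11 such genes 9 had their highest value in chromium restriction replicate 1, and their mean was 7.66, 7.23 and 7.07 in the chromium restriction arrays, against 6.92, 7.23 and 7.16 in the controls. Clec4g, a lectin of these cells, was at 6.43, 5.19 and 6.06, against 4.82, 5.48 and 4.85 in the controls, so it was highest on the arrays rich in hepatocyte genes. Replicate 3, also rich in hepatocyte genes, was the lowest of the 6 arrays for 4 of the 11: Stab1 (7.86), Mrc1 (9.74), Fcna (6.60) and Lyve1 (7.15). For Oit3 (6.25), Stab2 (5.61) and Dnase1l3 (6.31), as for Clec4g, replicate 3 was instead second only to replicate 1. The list thus held genes of both kinds, and its mean does not describe each of them. Of the 21 endothelial members, 2 had their highest of 6 values in replicate 1, where 21.4% of all genes had theirs, and 6 in replicate 3, where 11.8% of all genes did. The part of liver endothelium in the member values was not tested.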

How the data were processed

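The files hold 1 table of the series with 33793 probe sets on 6 arrays, 1 array per sample, biotin-labelled per the labels. The values deposited by the authors were taken to be log2 intensities already normalized, from their range; the log base and the methods of summarisation and normalization are not stated there, and no further normalization was applied. Of the probe sets 23521 had 1 gene symbol in the platform annotation, 1814 several and 8458 none. The probe set with the highest mean stood for each of 22180 genes; 2 probe sets that members share with other genes were left out. No filter on dim probe sets was used. Groups were compared with limma 3.58.1 under R 4.3.3 (lmFit, then eBayes), two-sided, Benjamini-Hochberg adjusted over all genes, after the scripts were tested on simulated data. Precision is limited by having only 3 arrays a group. The members, the lists, the named genes (all members with values, the 3 of each further list with the smallest p, and markers on which a result turns) and the tests were chosen with earlier results of these data known. Vegfa, Myl9 and Clec4g were named after their values were seen. The 16 alternatives changed the normalization, a filter, the variance model, array weights, the probe set rule, a replicate block, the arrays or rows used, or added the mean of 7 hepatocyte genes as a covariate.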

Additional observations from a re-analysis of the deposited data

How the results depend on the processing

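In limma, 0 endothelial, lymphatic or mural members passed an adjusted p of 0.05 under any of the 16 alternatives, with 0 to 7 members at an unadjusted p under 0.05. Over all genes 43 were called. That count was 0 when rows with further digits were left out (1264 genes at an unadjusted p under 0.05), 6 without the 2 arrays rich in hepatocyte genes, and 24 to 439 when single arrays were left out: 439 without chromium restriction replicate 2, 36 without replicate 1, and 24 without replicate 3 or any 1 control. With the replicate number as a block it was 0, with 1337 genes at an unadjusted p under 0.05. Whether the numbers pair the arrays was not settled. The deviations of arrays with the same number from their group means correlated at -0.12, -0.095 and 0.078. Chromium restriction replicate 1 correlated best with control 2. Genes of other tissues, which differed between arrays within a group, enter these correlations, so they cannot decide on a pairing.

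When single arrays were left out, the median log2 difference ran from -0.058 to 0.14 for endothelial, 0.11 to 0.35 for lymphatic, -0.0015 to 0.35 for mural and -0.047 to 0.94 for contractile genes. With the hepatocyte covariate the lymphatic, mural and contractile medians were 0.47, 0.29 and 0.68, and without the 2 arrays rich in hepatocyte genes 0.45, 0.21 and 0.58, against 0.16, 0.10 and 0.35 with all arrays and no covariate. With array weights the mural and contractile medians were 0.24 and 0.75. Cspg4 differed by -0.53 to -0.27 and Prox1 by 0.47 to 1.17 over the alternatives, with a smallest adjusted p of 0.105 and 0.272. Mustn1 passed without chromium restriction replicate 2 (adjusted p = 0.0413). With 3 arrays per group, differences could not be resolved for genes that varied within groups, such as Acta2 (0.87 ± 0.44, SE) and Myh11 (0.22 ± 0.90, SE). No background level is stated, which limits what can be said of dim genes such as Prox1.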
